A study of Homo sapiens with 12 samples.

Results

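The mRNAs described here are those that almost vanished from control cells within 8 h of blocked transcription. NOMO-1 cells, an established human line from acute myeloid leukaemia of the monocytic kind, had received a non-silencing hairpin (shNS), and a gene was taken where both shNS replicates kept under 10% of their 0 h signal at 8 h. That held for 109 of 9529 genes (1.14%). After 6 genes with ZNF symbols and 8 single genes had been set aside, 95 remained, and these 95 short-lived mRNAs are the subject here. The genes were chosen by the shNS values at 0 and 8 h, so those values are given as a description and were not tested. RRS1 and DUSP11 lay just inside the threshold, keeping 9.9969% and 9.97%, and 9.94% and 7.49% in the replicates. C15orf39, POP7 and NET1 lay just outside it, at 10.03% and 8.65%, 10.04% and 8.71%, and 10.06% and 8.85%. All 95 genes passed into every test, since no further filter was set. The table itself holds no gene at 0 and no gene whose mean signal over the 12 libraries is under 1.30, so it seems to list only genes above some minimum. Genes of low signal that decayed fastest may thus not be among the 9529, and the counts and features here describe listed genes only.

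Actinomycin D blocks RNA polymerases, so an mRNA that is present after hours in the drug was made before the block or escaped it. A short life lets a cell change the amount of an mRNA quickly, and short-lived mRNAs are known to include many that encode transcription factors, cell cycle regulators and signalling proteins. Decay is set by features such as AU-rich elements in the 3′ untranslated region (UTR), which recruit deadenylases, and by N6-methyladenosine (m6A), which the reader YTHDF2 links to decay. ALKBH5 is an enzyme that removes m6A from RNA.

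The series measured mRNA of NOMO-1 cells in 12 libraries, in 6 groups of 2. All cells received actinomycin D for 0, 8 or 12 h and carried either shNS (replicates 1 and 2) or 1 of 2 hairpins against ALKBH5 (shALKBH5). The pair of libraries in a knockdown group stands for the pair of hairpins, called lines D and E after the column letters. The sources used here do not say which letter is which hairpin. The protocol text speaks of lentivirus against FTO, puromycin selection and the compounds CS1 and CS2, whereas the sample titles name ALKBH5 and actinomycin D. The groups here are those of the titles. The values are the authors' expression signal, apparently scaled to the 46 ERCC spike-ins in the table, a step that no label states. The ERCC median lay between 29.9 and 33.1 throughout, while the gene total fell from 826000 to 953211 at 0 h to 143765 to 193639 at 12 h. Percent left divides each 8 or 12 h signal by the 0 h signal of its own replicate or line. ALKBH5 itself read 84.3 and 78.6 in shNS and 25.4 and 21.2 in lines D and E at 0 h, and 8.22, 8.30, 0.636 and 0.973 at 12 h. Of 10 myelomonocytic markers 6 were in the table (LYZ, CD33, SPI1, CEBPE, ITGAM and CD68), against 0 of 4 erythroid, 0 of 4 epithelial and 1 of 4 lymphoid markers. The myelomonocytic markers MPO, CD14, CSF1R and FCGR1A were not listed. Absence of any marker may also reflect the minimum that listed genes seem to pass. In these bulk samples, fewer cells and less RNA per cell cannot be told apart.

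The transcripts taken for the short-lived mRNAs had few exons. In the GENCODE release 29 annotation of GRCh38 all 95 genes were matched to a principal transcript, 2 of them through a synonym, as were 8942 of the 9529 genes. Their median was 6 exons against 10 over all genes. A single exon was annotated for 10 (10.5%) against 1.51%, and no more than 2 exons for 25 (26.3%) against 4.71%. The 10 genes whose chosen transcript has 1 exon were CHAMP1, CSTF2T, CXCR4, FOXC1, MAGEF1, MARS2, NSMCE3, RRS1, SDHAF1 and THAP11. Exons were counted in 1 transcript per gene, and other transcripts of a gene may have more. The genes CHAMP1 (chr13:114314335-114337626) and CXCR4 (chr2:136114349-136118165) span more than their chosen transcripts of 5122 and 1895 bases. Outside the 95, genes with 1 or 2 exons also kept less of their signal at 8 h than genes with more exons. At 8 h the median gene with 1 exon kept 26.2% in both shNS replicates and 17.5% and 24.2% in lines D and E. The median gene with 3 to 5 exons, the highest class, kept 48.5% and 46.4% in shNS and 26.0% and 37.6% in lines D and E. With 11 or more exons it was 39.9%, 39.1%, 23.0% and 31.9%, so the gap was smaller. At 12 h the median with 1 exon was 8.42% and 9.07% in shNS and 10.2% and 8.39% in lines D and E. With 11 or more exons it was then 11.4%, 12.3%, 10.6% and 10.2%, so in line D little difference was left. Among the 95 themselves, the 25 with up to 2 exons kept a median of 6.68% and 7.15% in lines D and E, and the 70 with more exons kept 5.43% and 6.33%.

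**Figure D1:**
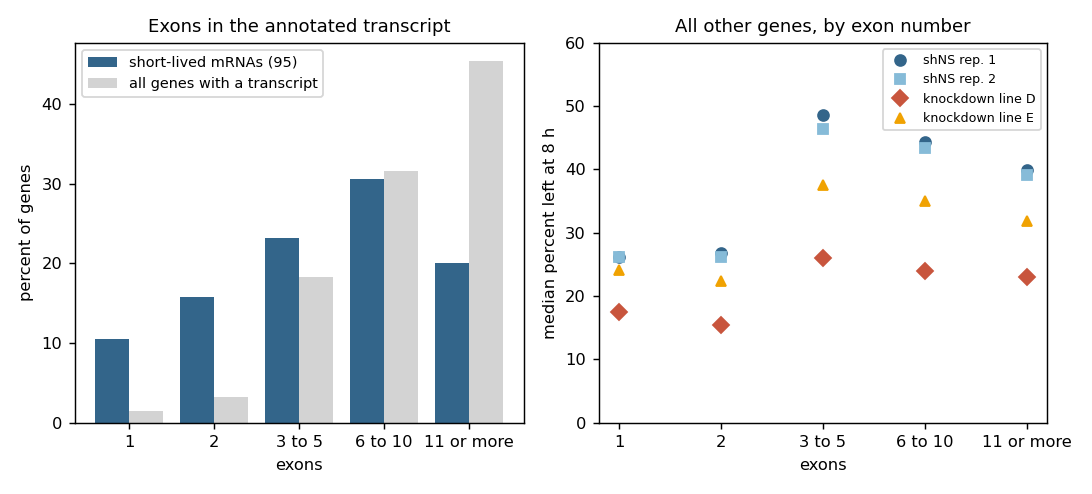
Left, the percent of the 95 short-lived mRNAs (blue bars) and of all genes with an annotated transcript (grey bars) in each class of exon number. Right, the median percent of the 0 h signal left at 8 h among all other genes of each exon class, with 1 symbol per shNS replicate or knockdown line. The 1-exon and 2-exon classes hold 10 and 15 of the 95 genes, and in both classes the other genes sit below those with more exons in all 4 series.

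Sequence features of the 3′ UTR differed less between the 95 and all genes. The median UTR was 953 bases long against 1030, with a GC content of 39.4% against 42.7%. GC content and the values per kb below cover only UTRs of at least 100 bases, those of 91 of the 95 and of 8492 of all genes. The pentamer ATTTA, the core of an AU-rich element, was found on the transcript strand in 75 genes (78.9%) against 68.1% of all genes with a transcript, at a median of 2.10 against 1.64 per kb. GGACT, a sequence within the consensus for m6A, was found in 58 (61.1%) against 57.7%, at a median of 0.797 against 0.580 per kb. The nonamer TTATTTATT, which contains the pentamer, was found in 6 genes (6.32%) against 7.87%. None of the 95 held 2 or more nonamers, against 1.80% of all genes. Of the 6 sites 5 are printed, because DDIT3, SPSB1 and HS6ST1 are among the genes that differed most between lines or kept most signal in the knockdown. Each is 29 bases of the GRCh38 transcript strand in GENCODE release 29, 5′ to 3′, with the nonamer in capitals. They lie in the 3′ UTR of DDIT3 (chr12:57516616-57516644, minus strand), GABPB1 (chr15:50275787-50275815, minus), HS6ST1 (chr2:128265623-128265651, minus), SNRK (chr3:43348656-43348684, plus) and SPSB1 (chr1:9368200-9368228, plus).
DDIT3: gattgtacatTTATTTATTactgtcccta
GABPB1: tcatttattgTTATTTATTttatttatat
HS6ST1: gtttaaagctTTATTTATTtatagcttct
SNRK: ttaggagcaaTTATTTATTacctttccat
SPSB1: caaaagccatTTATTTATTccatctagaa
These sites lie 109 (SNRK), 175 (DDIT3), 635 (SPSB1), 2521 (HS6ST1) and 2827 (GABPB1) bases after the stop codon. A match of these letters is a description and not a binding site.

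The 95 mRNAs were short-lived in the knockdown lines too. At 8 h the median of the 95 was 5.84% left in line D (2.14% to 12.3%) and 6.61% in line E (2.37% to 12.7%), while the median of all genes was 23.9% and 33.6%. In shNS, where the genes were chosen, the medians were 8.20% and 7.28% against 42.2% and 41.1%. Under 10% was left of 91 of the 95 in line D, where 8.93% of all genes lay under 10%, and of 88 in line E, where 3.19% did. In both lines it was 84 (88.4%), against 2.85% of all genes. The other 11 reached 10% in 1 line, and none reached it in both. These 11 were CCDC12, DDIT3, IRF2BP2 and SPSB1 in line D and DUSP11, FARSA, HS6ST1, KEAP1, RAB33A, THAP11 and TMEM115 in line E. Of all genes 87.8% kept less in line D than in line E, and of the 95 this held for 64 (67.4%). The full lists under 10% numbered 109 genes in shNS and 272 in the knockdown, and shared 96 genes, 88.1% of the first and 35.3% of the second.

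**Figure D2:**
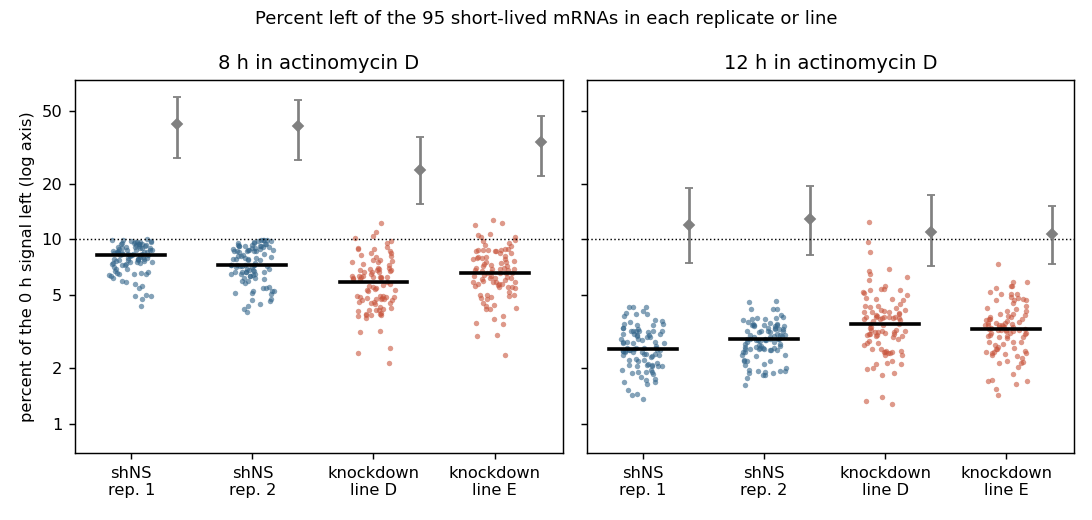
Percent of the 0 h signal left at 8 h (left) and 12 h (right) on a log axis, with 1 point per short-lived mRNA in each shNS replicate (blue) or knockdown line (red) and a black bar at the median. Grey diamonds and bars are the median and quartiles of all 9529 genes, and the dotted line is the 10% used to choose the genes in shNS at 8 h. At 8 h the medians of the 95 are 8.20%, 7.28%, 5.84% and 6.61%, all below the quartiles of all genes.

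The fall by 8 h in the knockdown was tested with limma on log2(signal + 1), a scale on which changes of low signals are understated. All 95 fell, but so did 96.0% of all genes, and none of the 95 rose, where 0.0315% of all genes did. The median change was -3.49 against -1.66 over all genes, and the 95 ranged from -5.25 to -2.95. By 12 h all 95 were called lower than at 0 h, as were 99.6% of all genes (0.0210% were higher), with a median of -4.14 against -2.80. Between 8 and 12 h the knockdown fall passed the same test for 56 of the 95, where 93.0% of all genes passed, with a median of -0.59 against -1.06. This later comparison was added after the data were seen. Without line E at 12 h, 27 passed. With median-of-ratios scaling and with scaling to ribosomal protein genes, limma called 0 of the 95 and 0 of all genes in either direction, and the median of the 95 turned to 0.35 and 0.38, against 0.02 and 0.05 over all genes. At an unadjusted p under 0.05, 33 and 28 of the 95 were higher at 12 h and 0 lower under these scalings, against 5.93% and 5.43% of all genes higher and 4.63% and 1.22% lower. At 8 h the median signal of the 95 was 2.70 and 2.65 in lines D and E, close to the pseudocount of 1.

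Percent left at 12 h is given here for each replicate and line. The median of the 95 was 2.54% and 2.87% left in shNS against 11.9% and 12.9% over all genes, and 3.49% and 3.27% in lines D and E against 10.9% and 10.7%. The median of the 95 was thus 21.3% and 22.2% of the median of all genes in shNS, and 32.0% and 30.7% in lines D and E. From 8 to 12 h the median short-lived mRNA kept 33.4% and 37.4% of its 8 h signal in shNS and 59.5% and 50.3% in lines D and E. Over all genes those medians were 29.99%, 33.0%, 48.1% and 32.9%. The shNS values are ratios to the 0 h or 8 h shNS signal, and both of these chose the genes, so the shNS and knockdown values stand side by side as a description and the difference between them was not tested.

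Signals at 12 h were near the lower end of the table. The lowest gene signal at 12 h was 0.407 and 0.363 in shNS and 0.433 and 0.338 in lines D and E, and no gene of the table is listed at 0. Within 2 times that lowest value lay 39 and 34 of the 95 in shNS and 12 and 14 in lines D and E. Of all genes, 11.3% and 9.61% lay there in shNS and 6.96% and 6.84% in lines D and E. The table lists no lower value, so how an mRNA behaved below it cannot be read here.

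Transcription factors made up 11 of the 95. CTCF, the insulator and genome-folding factor (ENSG00000102974.15, chr16:67562407-67639185, plus strand), read 39.8 and 36.4 in shNS and 52.8 and 38.5 in lines D and E at 0 h, 3.09, 2.42, 2.18 and 1.85 at 8 h, and 0.841, 0.713, 1.05 and 0.824 at 12 h. FLI1, an ETS factor of blood and endothelium, read 144 and 125 in shNS and 118 and 124 in lines D and E at 0 h, 13.9, 11.8, 6.17 and 9.92 at 8 h, and 5.64, 5.23, 3.32 and 5.09 at 12 h. IRF2, a repressor of interferon genes, read 30.9 and 28.5 in shNS and 25.5 and 28.5 in lines D and E at 0 h, 2.04, 1.91, 1.66 and 2.41 at 8 h, and 0.715, 0.697, 0.964 and 1.10 at 12 h. By 8 h little of all 3 was left in either line, with 4.13% and 4.82% left of CTCF in lines D and E, 5.25% and 8.00% of FLI1 and 6.51% and 8.45% of IRF2. HOXA13, a homeobox factor of limb and gut patterning, kept 9.09% and 6.87%, and TFAP4, a helix-loop-helix factor, kept 8.03% and 9.54%. THAP11, a zinc-binding factor encoded by a single exon, kept 6.13% and 10.4%. RARA, the retinoic acid receptor that drives myeloid differentiation, kept 6.27% and 6.64%. The rest were DDIT3, FOXC1, GABPB1, the partner subunit of the ETS factor GABPA, and NKRF, a repressor of NF-kB targets. Over the 11, the median left at 8 h was 6.31% and 6.87% in lines D and E.

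Cofactors and chromatin regulators, 10 genes, held the mRNA with the least left in either line. CITED2, a coactivator that binds CBP and p300 (ENSG00000164442.9, chr6:139371807-139374620, minus strand), read 185 and 167 in shNS and 273 and 245 in lines D and E at 0 h, 8.81, 6.77, 5.83 and 5.80 at 8 h, and 3.13, 3.21, 3.48 and 3.50 at 12 h. It kept 2.14% and 2.37% in lines D and E at 8 h (log2 -5.25, SE 0.19, limma adjusted p = 1.57e-08), the lowest of the 95 in both lines. BCOR, a corepressor in a Polycomb complex, read 42.8 and 38.3 in shNS and 54.1 and 44.7 in lines D and E at 0 h, 2.12, 1.96, 2.16 and 1.88 at 8 h, and 0.721, 0.719, 1.31 and 1.09 at 12 h. It was higher in both knockdown lines than in both shNS replicates at 0 h and again at 12 h, and at 8 h the values overlapped. SIN3A, the scaffold of a histone deacetylase complex, kept 6.28% and 6.70%, and SUV39H1, a histone H3 lysine 9 methyltransferase, kept 6.98% and 8.63%. BRPF1, PIAS1, PHF23, IRF2BP2 and TRIM24 kept 5.47% to 10.9% in line D and 5.45% to 7.92% in line E.

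The transcription and RNA processing machinery gave 12 genes. These were the general factors GTF2B and GTF2E1, the RNA polymerase I subunit POLR1B, the elongation factor LEO1, the cleavage factors CSTF1 and CSTF2T, and the lariat debranching enzyme DBR1. CSTF2T is an intronless relative of CSTF2, with which it may share reads. The others were GEMIN6 of the SMN complex, the splicing factor CCDC12, the mRNA export factor NXT1, the phosphatase regulator PPP1R8 and the RNA phosphatase DUSP11. CSTF1 read 30.2 and 27.0 in shNS and 37.8 and 28.6 in lines D and E at 0 h, 1.49, 1.24, 1.20 and 0.869 at 8 h, and 0.495, 0.520, 0.759 and 0.490 at 12 h, and kept 3.18% and 3.04% at 8 h. POLR1B read 29.5 and 27.3 in shNS and 49.5 and 33.0 in lines D and E at 0 h, 2.53, 2.13, 3.12 and 2.16 at 8 h, and 0.577, 0.693, 1.52 and 1.10 at 12 h. GEMIN6 read 40.0 and 41.2 in shNS and 61.8 and 46.9 in lines D and E at 0 h, 3.13, 3.0, 4.77 and 3.57 at 8 h, and 1.27, 1.08, 2.42 and 1.83 at 12 h. GEMIN6 was higher in both lines than in both shNS replicates at all 3 times, whereas the 8 h values of POLR1B overlapped. Over the 12, the median left at 8 h was 5.14% and 6.88% in lines D and E.

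Regulators that bind mRNA were represented by PUM2, a Pumilio repressor, and YTHDF2, the m6A reader that promotes decay of its targets. PUM2 read 97.6 and 84.3 in shNS and 99.6 and 80.8 in lines D and E at 0 h, 9.66, 8.35, 7.55 and 7.02 at 8 h, and 2.39, 2.44, 3.71 and 2.99 at 12 h. YTHDF2 (ENSG00000198492.15, chr1:28736621-28769775, plus strand) read 67.3 and 57.7 in shNS and 103 and 69.5 in lines D and E at 0 h, 6.39, 5.13, 4.20 and 4.35 at 8 h, and 2.13, 1.98, 2.63 and 2.16 at 12 h. YTHDF2 mRNA was thus higher in both knockdown lines at 0 h, lower in both at 8 h and, by a small margin, higher in both at 12 h (log2 0.15, SE 0.22, limma adjusted p = 0.765). It kept 4.07% and 6.27% at 8 h in lines D and E, and PUM2 kept 7.57% and 8.68%.

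Nucleolar ribosome assembly factors numbered 5. RRS1, a factor of large subunit assembly encoded by 1 exon, read 27.5 and 26.1 in shNS and 77.0 and 35.2 in lines D and E at 0 h, 2.75, 2.60, 5.15 and 3.29 at 8 h, and 0.765, 0.915, 3.11 and 1.38 at 12 h. NIFK, which binds the proliferation antigen Ki-67, read 77.3 and 68.3 in shNS and 148 and 74.6 in lines D and E at 0 h, 5.31, 4.84, 5.77 and 3.13 at 8 h, and 1.43, 1.38, 2.79 and 1.89 at 12 h. DDX10, an RNA helicase, read 24.3 and 22.0 in shNS and 28.8 and 22.0 in lines D and E at 0 h, 2.13, 1.90, 2.09 and 1.85 at 8 h, and 0.776, 0.704, 1.54 and 1.29 at 12 h. In RRS1 and NIFK line D stood well above the other 3 libraries at 0 h. MPHOSPH10, a small subunit factor, and NGDN kept 3.15% and 4.35% and 3.92% and 3.83% at 8 h in lines D and E, near the 3.92% and 4.35% that were the medians of the 5.

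Mitochondrial proteins encoded in the nucleus gave 10 genes. They were the ribosome-related C12orf65, MALSU1, MRPS30 and NOA1, the methionyl-tRNA synthetase MARS2, the lipoyl transferase LIPT1, the import subunit TIMM22, the complex II assembly factor SDHAF1, and MTFR2 and PIGBOS1. Their median at 8 h was 4.82% and 6.32% left in lines D and E. MALSU1 kept 4.54% and 9.80% and SDHAF1 kept 9.59% and 5.67%, so the lines differed in opposite directions for these genes. MTFR2 was below both shNS replicates in both lines at 12 h, at 1.02 and 0.879 in shNS and 0.787 and 0.454 in lines D and E.

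Cell cycle, replication and repair genes were 13, and all kept under 10% in both lines. WEE1, the kinase that restrains entry into mitosis, read 35.1 and 32.2 in shNS and 49.8 and 28.6 in lines D and E at 0 h, 1.91, 1.96, 1.21 and 0.853 at 8 h, and 0.658, 0.701, 0.695 and 0.493 at 12 h. CDKN1B, the CDK inhibitor p27, read 158 and 118 in shNS and 141 and 161 in lines D and E at 0 h, 9.26, 8.00, 6.85 and 5.97 at 8 h, and 3.52, 3.60, 4.33 and 2.50 at 12 h. PLK1, a mitotic kinase, read 100.3 and 96.7 in shNS and 82.5 and 84.8 in lines D and E at 0 h, 7.60, 6.27, 3.88 and 5.39 at 8 h, and 2.64, 2.79, 1.95 and 1.97 at 12 h. PLK1 was lower in both lines than in both shNS replicates at each of the 3 times, and at 12 h the difference did not pass the test (log2 -0.33, SE 0.19, limma adjusted p = 0.4). CDT1, which licenses replication origins, read 70.1 and 65.3 in shNS and 57.2 and 54.8 in lines D and E at 0 h, 5.39, 3.58, 3.53 and 3.95 at 8 h, and 1.68, 1.75, 1.76 and 1.64 at 12 h. DTL, an adaptor of the ligase that degrades CDT1, kept 2.59% and 4.50% at 8 h, against 6.18% and 7.21% for CDT1. WEE1 kept 2.43% and 2.98%, and in line D only CITED2 kept less. The others were CCNF, CHAMP1, HAUS8, MAD2L1BP, MND1, MSH6, NSMCE3 and ORC5, at 4.15% to 8.84% in line D and 4.89% to 8.76% in line E. MND1, a meiotic recombination partner, was below both shNS replicates in both lines at each of the 3 times.

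Ubiquitin ligase parts and a deubiquitinase complex subunit gave 6 genes. KEAP1, the adaptor that targets NRF2 for degradation, read 55.3 and 46.8 in shNS and 92.5 and 59.2 in lines D and E at 0 h, 4.34, 4.28, 6.21 and 6.30 at 8 h, and 1.68, 1.61, 4.04 and 3.31 at 12 h. It kept 6.71% and 10.6% at 8 h. SPSB1, a SOCS box adaptor, kept 10.5% and 5.52%, and TRIM4 kept 6.24% and 8.07%. FBXO34, an F-box protein, kept 7.32% and 4.96%, and FAM175B kept 3.86% and 6.14%.

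Receptors, membrane proteins and signalling genes were 13, with all under 10% in both lines at 8 h. CXCR4, the receptor for the chemokine CXCL12 (ENSG00000121966.6, chr2:136114349-136118165, minus strand), read 708 and 703 in shNS and 412 and 537 in lines D and E at 0 h, 58.5, 46.9, 19.8 and 22.8 at 8 h, and 24.3, 22.4, 13.0 and 12.1 at 12 h. It was lower in both knockdown lines at each time, with no overlap. TNFRSF1A, the main receptor for tumour necrosis factor, read 95.2 and 88.1 in shNS and 115 and 179.8 in lines D and E at 0 h, 7.01, 5.74, 4.84 and 14.2 at 8 h, and 2.22, 2.33, 2.42 and 8.48 at 12 h. NRROS, a partner of latent TGF-beta in myeloid cells, read 48.8 and 47.7 in shNS and 62.4 and 63.4 in lines D and E at 0 h, 2.74, 2.51, 2.98 and 3.49 at 8 h, and 0.932, 1.12, 2.42 and 2.33 at 12 h. KCNE3, a potassium channel subunit, read 52.3 and 44.0 in shNS and 27.2 and 51.1 in lines D and E at 0 h, 2.61, 1.92, 1.82 and 2.54 at 8 h, and 0.749, 0.847, 1.04 and 1.32 at 12 h. NRROS was higher in both lines than in both shNS replicates at every time, while KCNE3 stood lower in line D than in the other 3 libraries at 0 h. PIM3, a serine kinase, kept 5.33% and 4.39% at 8 h. The inflammasome sensor NLRP3 kept 4.95% and 8.71%. P2RY8, PIK3R1, BAG4, MOB3A, RIN3 and SNRK, also in this group, were at 4.71% to 9.84% in line D and 5.88% to 8.81% in line E.

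Small GTPases, Golgi and autophagy genes were 5: ARF6, RAB20, RAB33A, the Golgi protein TMEM115 and the autophagy factor ATG101. TMEM115 read 26.1 and 23.3 in shNS and 40.5 and 35.5 in lines D and E at 0 h, 2.35, 2.13, 3.10 and 3.75 at 8 h, and 1.13, 0.972, 2.52 and 2.59 at 12 h, and was above both shNS replicates in both lines at every time. ATG101 read 18.8 and 16.8 in shNS and 43.0 and 34.6 in lines D and E at 0 h, 1.55, 1.04, 2.04 and 3.41 at 8 h, and 0.576, 0.480, 1.58 and 1.62 at 12 h. Its 0 h signal in both lines exceeded both shNS values, as at 8 and 12 h. The median of the 5 at 8 h was 5.84% and 9.87% left in lines D and E. The remaining 8 genes were FARSA, HS6ST1, which sulfates heparan, the MAGE gene MAGEF1, and C14orf119, CDR2, FAM212A, MRFAP1L1 and TTC4. MAGEF1 read 29.8 and 26.9 in shNS and 25.4 and 48.2 in lines D and E at 0 h, 1.99, 1.20, 2.14 and 3.08 at 8 h, and 0.522, 0.516, 1.32 and 1.90 at 12 h. FAM212A read 21.3 and 18.1 in shNS and 34.7 and 29.5 in lines D and E at 0 h, 1.21, 0.948, 1.72 and 1.41 at 8 h, and 0.589, 0.577, 1.73 and 0.734 at 12 h. HS6ST1 kept 8.43% and 12.3% at 8 h. FARSA is taken up with the test at 12 h.

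**Figure D3:**
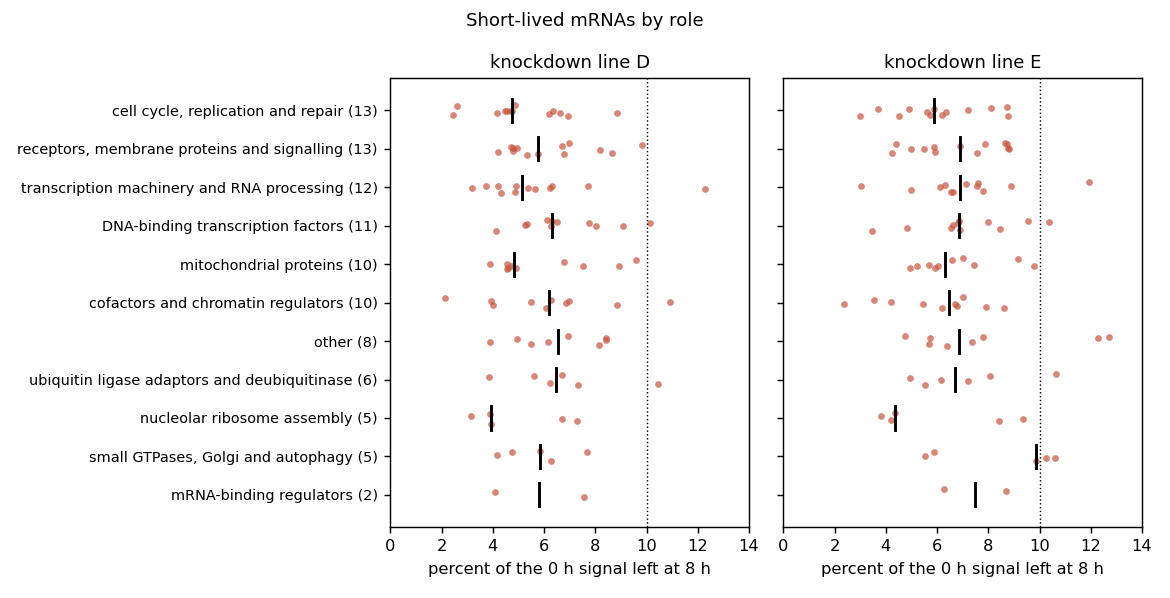
Percent of the 0 h signal left at 8 h in knockdown line D (left) and line E (right), with 1 point per short-lived mRNA, a black bar at the median of each role and the number of genes in brackets. The nucleolar factors have medians of 3.92% and 4.35%, and the dotted line marks 10%, which 4 genes reach in line D and 7 in line E.

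Short-lived mRNAs were 0.997% of all genes, and they made up 0 to 8.77% of the lists of functional genes drawn up for this work, a description with no test. Their share was 8.77% of cell cycle and mitosis genes (5 of 57), 5.83% of chromatin regulators (6 of 103), 5.26% of cytokines, chemokines and receptors (2 of 38) and 4.55% of lineage and other transcription factors (5 of 110). It was 4.35% of the immediate early list (1 of 23, PIM3) and 4.17% of the feedback inhibitor list (1 of 24, DDIT3). DDIT3 is placed by role among the transcription factors, so that share says little of feedback inhibitors. The share was 3.12% of mRNA decay regulators (2 of 64) and 2.36% of ubiquitin ligases and adaptors (6 of 254). Near the share of all genes were zinc finger factors without a ZNF symbol at 1.46% (2 of 137), rRNA and tRNA processing genes at 1.11% (2 of 180) and the elongation and splicing list at 1.02% (1 of 98, POLR1B). The rRNA and tRNA list does not hold NIFK, MPHOSPH10 or NGDN, and the elongation and splicing list does not hold LEO1 or CCDC12. These shares thus describe the lists as drawn up and not the functions. Apoptosis regulators (34), histone genes (12) and non-coding transcripts (190) gave 0. Single genes of several of these lists had been set aside by the choice of the 95, so the counts are not those of all short-lived mRNAs.

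At 12 h, in libraries that took no part in choosing the genes, most short-lived mRNAs read higher in the knockdown than in shNS. The choice was made in the shNS arm alone, so it may favour mRNAs that also read low in shNS at 12 h. How far it shapes the 12 h counts was not tested. Both lines were above both shNS replicates for 67 of the 95 (70.5%), against 33.0% of all genes, and below both for 5, against 25.0%. The 5 were CXCR4, FLI1, MND1, MTFR2 and PLK1. By role, the number above was 6 of 11 transcription factors, 8 of 10 cofactors and chromatin regulators, 10 of 12 machinery genes, 5 of 5 nucleolar factors, 7 of 10 mitochondrial genes, 6 of 13 cell cycle genes, 2 of 6 ubiquitin genes, 9 of 13 receptors and signalling genes, 4 of 5 GTPase, Golgi and autophagy genes, both mRNA-binding regulators and 8 of the 8 remaining genes. The roles are small and were assigned by hand after values were seen, so no difference between them is read from these counts. The median ratio of the knockdown mean to the shNS mean was 1.59, against 1.08 over all genes. At 0 h that ratio was 1.27 against 1.19, and at 8 h it was 0.966 against 0.840. These earlier ratios share the shNS libraries that chose the genes and were not tested. At 0 h 46 of the 95 were above and 12 below, against 46.4% and 6.88% of all genes, and at 8 h 18 and 30, against 10.4% and 42.8%. The number above both shNS replicates is also given by the mean 12 h signal over both arms, a description with no test. With a mean under 1 it was 25 of 39 short-lived mRNAs against 40.5% of other genes. From 1 to under 2 it was 27 of 33 against 40.1%, and from 2 it was 15 of 23 against 28.4%. These levels remove neither the lower limit of listed values nor the choice made in shNS.

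Gene by gene, few of these differences passed the test. With 2 libraries a group, limma called 1 of the 95 higher in the knockdown at 12 h, where 0.525% of all genes were called higher, and 0 lower, against 0.493%. The spread behind these p-values was pooled over all groups, including the shNS libraries at 0 and 8 h that chose the genes. At an unadjusted p under 0.05 the counts were 23 and 1, or 24.2% and 1.05% of the 95, against 10.4% and 7.16% of all genes. The median log2 difference was 0.34 against 0.06 over all genes, and 83 of the 95 were positive against 56.7%. With the replicate and line as a block, 33 were called higher and 1, CXCR4, lower, against 13.4% and 11.0% of all genes. The block removes the steady difference between lines D and E from the spread and takes the times of 1 line as replicates. Its calls thus do not weigh the difference between hairpins. With a pseudocount of 0.1 in place of 1 it was 11 higher and 1 lower, against 3.55% and 2.03%. With median-of-ratios scaling it was 20 higher and 3 lower, against 8.47% and 8.14%. Scaled to the ribosomal protein genes, which moved the median of all genes from 0.06 to 0.41, 53 were called higher and 0 lower, against 28.8% and 0.892%.

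The called gene was FARSA, the catalytic subunit of cytosolic phenylalanyl-tRNA synthetase (ENSG00000179115.10, chr19:12922479-12934037, minus strand). It read 101 and 96.0 in shNS and 158 and 151 in lines D and E at 0 h, 8.20, 6.87, 12.8 and 19.2 at 8 h, and 2.52, 2.44, 5.95 and 8.85 at 12 h. Both lines were above both shNS replicates at all 3 times, and line E was the higher at 8 and 12 h. At 12 h the difference was log2 1.25, SE 0.23, limma adjusted p = 0.0343. Over 19 alternatives it lay between log2 1.00 and 1.77, with adjusted p between 9.51e-11 and 0.393, and the call was lost without any 1 of the 6 shNS libraries or line E at 12 h. The lowest of these adjusted p came from the replicate block, which does not weigh the difference between hairpins. FARSA was also the highest of the 95 in line E at 8 h, with 8.15% and 12.7% left in lines D and E against 8.14% and 7.16% in shNS. CXCR4 had the largest difference in the other direction at 12 h (log2 -0.84, SE 0.20, limma adjusted p = 0.0708). TMEM115 (log2 0.80, SE 0.18, limma adjusted p = 0.0561) and NRROS (log2 0.74, SE 0.17, limma adjusted p = 0.0636) came next to FARSA in adjusted p among those that read higher.

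**Figure D4:**
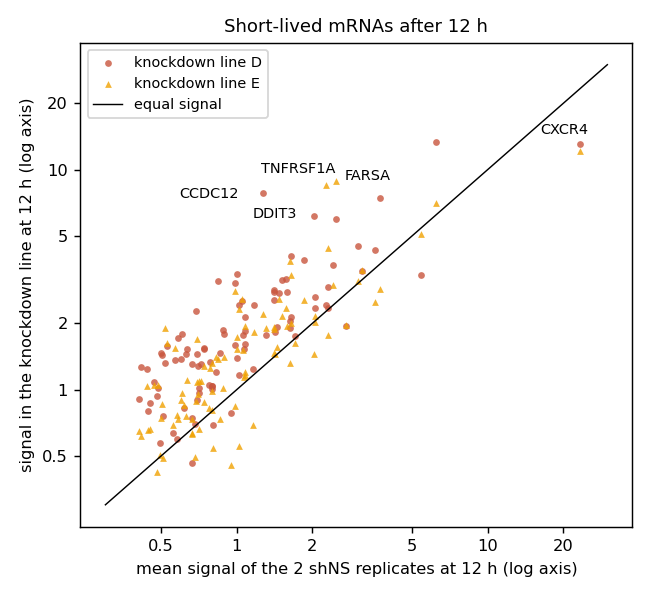
Signal at 12 h of each short-lived mRNA in knockdown line D (red circles) and line E (orange triangles) against the mean of the 2 shNS replicates, both on log axes, with the line of equal signal. Most points lie above the line, 67 genes being above both shNS replicates in both lines, and CXCR4 lies below it at 24.3 and 22.4 in shNS against 13.0 and 12.1.

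Some short-lived mRNAs differed between the knockdown lines themselves, as many genes at large did. Line D minus line E, averaged over the 3 times, was called higher for 24 of the 95 (25.3%), where 21.0% of all genes were. It was called lower for 8 (8.42%), where 20.6% were. The first share lay near that of all genes and the second below it. With median-of-ratios scaling it was 43 higher and 11 lower, against 30.2% and 26.9% of all genes. The median difference was 0.20 against 0.02 over all genes. Each line is 1 hairpin followed over time, so hairpin, culture and library cannot be told apart. The p-values rest on a spread pooled with the shNS replicates and drawn by limma toward a common trend. The SE was thus near 0.15 for the genes named here, also where the line difference changed with time, and is not each gene's own spread. PHF23, a PHD finger protein, read 19.5 and 18.4 in shNS and 48.0 and 21.3 in lines D and E at 0 h, 1.66, 1.45, 3.29 and 1.16 at 8 h, and 0.700, 0.681, 2.27 and 0.893 at 12 h, and line D stood above line E at each time (log2 0.97, SE 0.15, limma adjusted p = 9.82e-10). RRS1 (log2 0.80, SE 0.15, limma adjusted p = 1.52e-06) and NIFK (log2 0.69, SE 0.15, limma adjusted p = 3.1e-05), both nucleolar, were higher in line D as well. In these genes line E lay nearer to shNS at 0 h than line D did.

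In CCDC12, DDIT3 and SPSB1 the lines lay close together at 0 h and apart later. CCDC12, a spliceosome component (ENSG00000160799.11, chr3:46921726-46982010, minus strand), read 43.2 and 36.7 in shNS and 63.1 and 53.8 in lines D and E at 0 h, 1.87, 2.19, 7.75 and 3.30 at 8 h, and 1.27, 1.27, 7.85 and 2.20 at 12 h. In line D it kept 12.3% at 8 h and 12.4% at 12 h, so its signal hardly moved between these times, while in line E it kept 6.13% and 4.09%. Line D was higher over the 3 times (log2 0.91, SE 0.15, limma adjusted p = 4.26e-08). DDIT3, the stress-induced factor CHOP (ENSG00000175197.12, chr12:57516588-57521737, minus strand), read 73.8 and 67.7 in shNS and 72.6 and 85.3 in lines D and E at 0 h, 4.74, 3.45, 7.37 and 2.96 at 8 h, and 2.23, 1.84, 6.17 and 1.46 at 12 h. At 0 h line D was below line E, and at 8 and 12 h it was above all 3 other libraries, with 10.1% and 3.47% left at 8 h and 8.49% and 1.71% at 12 h. Its line difference (log2 0.80, SE 0.15, limma adjusted p = 1.24e-06) was lost without either line at 8 or 12 h. SPSB1 read 38.6 and 34.0 in shNS and 31.3 and 28.7 in lines D and E at 0 h, 2.51 and 1.59 in shNS and 3.28 and 1.59 in lines D and E at 8 h and 0.994 and 0.977 in shNS and 3.05 and 0.846 in lines D and E at 12 h, so line D again stood alone at the later times. Its line difference (log2 0.66, SE 0.15, limma adjusted p = 8.15e-05) was lost without either line at 12 h. RAB20, a vesicle GTPase, was higher in line D at every time, at 144 and 132 in shNS and 156 and 103 in lines D and E at 0 h and 3.70 and 3.76 in shNS and 7.40 and 2.87 in lines D and E at 12 h (log2 0.78, SE 0.14, limma adjusted p = 7.22e-07).

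TNFRSF1A had the largest difference in favour of line E (log2 -1.16, SE 0.15, limma adjusted p = 6.52e-14). Its line E signal was the highest of the 4 series at all 3 times, whereas line D was close to shNS at 12 h, as the values given above show. RAB33A, a vesicle GTPase, read 52.1 and 49.6 in shNS and 46.3 and 76.0 in lines D and E at 0 h, 3.87, 4.56, 2.70 and 7.79 at 8 h, and 1.64, 1.64, 1.91 and 3.85 at 12 h (log2 -0.90, SE 0.15, limma adjusted p = 5.63e-08). NLRP3 read 20.5 and 20.1 in shNS and 22.4 and 35.0 in lines D and E at 0 h, 1.77, 1.55, 1.11 and 3.05 at 8 h, and 0.671, 0.715, 0.902 and 1.70 at 12 h (log2 -0.69, SE 0.15, limma adjusted p = 2.1e-05). For both, line E was above both shNS replicates at every time, and line D was below both at 8 h. MAGEF1 (log2 -0.53, SE 0.15, limma adjusted p = 0.0016), KCNE3 (log2 -0.47, SE 0.15, limma adjusted p = 0.00729) and NXT1 (log2 -0.41, SE 0.15, limma adjusted p = 0.0198) were also higher in line E. The calls of MAGEF1 and KCNE3 were lost without either line at 0 h, and that of NXT1 in 9 of 19 alternatives. Of the genes named by rule, CCDC12, MOB3A, NIFK, NLRP3, PHF23, RAB20, RAB33A, RRS1 and TNFRSF1A held in all 19.

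**Figure D5:**
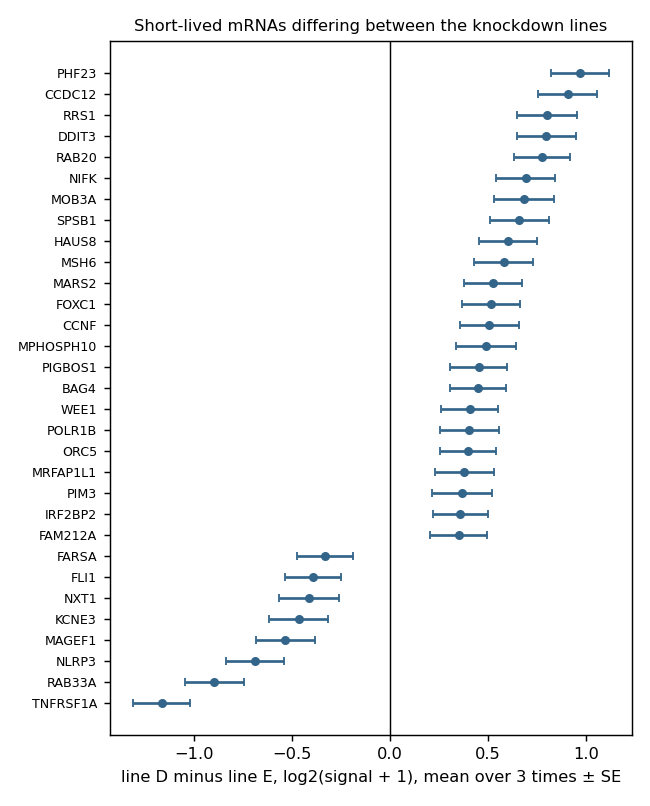
Line D minus line E in log2(signal + 1), averaged over the 3 times, for short-lived mRNAs called by limma, with bars of 1 standard error. Of the 32 called genes 1 is not drawn. The values run from -1.16 for TNFRSF1A to 0.97 for PHF23, with 8 genes to the left of 0.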

How the data were processed

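The authors deposited 1 table of expression signal per gene symbol for the 12 libraries, whose unit before scaling the sources used here do not state. STAR, RSEM and GRCh38 are named, per the submitters' processing notes, without versions. The deposited signal holds no counts, so the depth of each library is unknown and counting error could not be given. No label calls the replicates separate cultures, and the p-values cover only the spread between libraries, which may be technical. Of its rows, 46 ERCC transcripts were left out of all tests, and 9529 genes were tested without a filter. limma 3.58.1 in R 4.3.3 was run on log2(signal + 1) (6 group means, mean-variance trend, empirical Bayes), with Benjamini-Hochberg adjusted p under 0.05 over all genes. The line comparison added a replicate or line term within each arm. Line differences correlated at 0.777, 0.657 and 0.900 between times over the 9529 genes in the knockdown, where columns share a line letter, and at 0.271, 0.065 and 0.138 between shNS replicates.

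The 95 genes and all functional lists were chosen with earlier results of these data known, and the 11 roles were assigned by hand after values were seen. Genes were named by a rule: the 10 with least left in shNS at 8 h, up to 4 of each list by 0 h signal, those called at 12 h, up to 6 in each direction between lines, the 8 with most left in the lower knockdown line, and those nearest the threshold. Others are named as parts of a role or of a count, some with their values, as ATG101 is. They were chosen after values were seen. Some genes counted here, and 1 site, are not reported by name or sequence. Transcripts, exons and UTRs are from GENCODE release 29, with 1 coding transcript per gene, and motifs were searched on the transcript strand only. The procedure was tested on simulated data. Alternatives were a pseudocount of 0.1, a mean signal of at least 5, 3 other scalings, limma without trend, the replicate block and leaving out each library.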

Additional observations from a re-analysis of the deposited data

How the results depend on the processing

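All 95 short-lived mRNAs were called lower at 8 h than at 0 h in the knockdown under all 19 alternatives, and at 12 h the count was 95 under all but median-of-ratios scaling, where it was 90. The count differing between arms at 12 h, 1 in the reported fit, was 12 with a pseudocount of 0.1, 2 with a mean signal of at least 5, 23 with median-of-ratios scaling (20 higher, 3 lower), 53 with scaling to ribosomal protein genes, 2 with rescaling to ERCC, 34 with the replicate block, and 0 to 6 when each library was left out in turn (0 without any 1 shNS library, 6 without either line at 8 h). The block leaves the differences as they are and changes only their spread. It takes the steady difference between hairpins out of that spread, so its 34 calls do not weigh it. Scaling moved the median of all genes, from -1.66 to 0.04 for the change by 8 h with median-of-ratios scaling. Between lines D and E the count of 32 became 54 with median-of-ratios scaling (43 higher in line D, 11 lower) and 22 to 40 without single libraries. The 56 that fell from 8 to 12 h in the knockdown became 0 with median-of-ratios scaling, 0 with scaling to ribosomal protein genes, and 27 to 65 without single libraries. The same 56 became 76 with the replicate block and 70 with a pseudocount of 0.1, where the median was -0.83 against -1.29 over all genes. The 84 that kept under 10% in both lines became 1 with median-of-ratios scaling, which by its construction removes the fall common to all genes. The causes of the other shifts were not tested. The comparison of 12 h with 8 h and the count of 67 above shNS at 12 h, with their alternatives, were added after the data were seen. The 67 became 64, 87 and 66 with median-of-ratios, ribosomal and ERCC scaling, against 30.9%, 61.3% and 32.4% of all genes. Where a library was left alone in its group, it was assumed to vary like the others. Signals near the lowest listed value at 12 h and an unknown read depth limit the differences that could be seen there.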
